A study of Mus musculus with 8 samples.

Results

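The step from the immature B cell, the first stage with a complete B cell receptor on its surface, to the mature B cell was read from the mRNA of wild type C57BL/6 mice. Both populations were sorted from the bone marrow of young adult females, the immature B cells as B220+ IgM+ CD43- and the mature B cells as B220hi IgM+ CD43-, and cells of several mice were pooled for each. There was 1 rRNA-depleted RNA library per stage, so no value below has a replicate check and no test between the stages was possible. Of the 8 libraries of the series, these 2 were compared, and of 22298 genes in the mRNA table the 7131 with 20 or more counts over the 2 libraries were kept. Levels are given as CPM, a gene's counts per 1000000 mRNA counts of the same library. Most ratios carry a 95% counting interval, which covers the error of counting reads only and not the difference between mice or sorts.

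Immature B cells carry IgM and are still screened for reactivity to self in the marrow. Cells that pass leave for the spleen, where they gain IgD, the complement receptor CD21 and the IgE receptor CD23 and come to depend on survival signals. A share of the mature cells returns to the marrow, and these recirculating cells carry high B220. Since the mature cells in the marrow have been through the spleen, a comparison of the 2 gates spans the transitional stages between them. In bulk samples such as these, fewer cells of a type and less RNA per cell cannot be told apart.

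The libraries stood apart in a way that touches every result below. The mRNA table held 223495 counts for the immature B library and 849350 for the mature B library, although the mRNA and lncRNA tables together held 3450657 and 3614857. The mRNA table thus took 6.48% (Wilson 95% interval 6.45 to 6.50) of both tables in immature B cells and 23.5% (23.5 to 23.5) in mature B cells. The pre-B library, at 6.48%, had the share of the immature B library, and the pro-B library, at 23.7%, that of the mature B library. With 1 library per stage, this split and the stage cannot be told apart. CPM takes each library's own mRNA total as its base. The pro-B and pre-B libraries are not part of the comparison but have the same split, and their difference is given beside some of the results. Where it is not given, the part of the split was not tested either.

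Of the 7131 genes kept, 2027 were 2-fold or more higher in the mature B library, which is 28.4% of them, and 1248 were 2-fold or more lower, which is 17.5%. These shares are the background against which each gene group is read. The counts became 1561 and 1496 when the libraries were scaled by trimmed means of M values (TMM), which lowers every log2 ratio by 0.23. The median log2 ratio over all genes kept was 0.32. For 678 genes the whole counting interval lay above 2-fold, or 9.51%, and for 525 it lay below, or 7.36%. A count of 1 was worth 4.47 CPM in the immature B library and 1.18 CPM in the mature B library, so that low levels were read less finely in immature B cells.

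**Figure D1:**
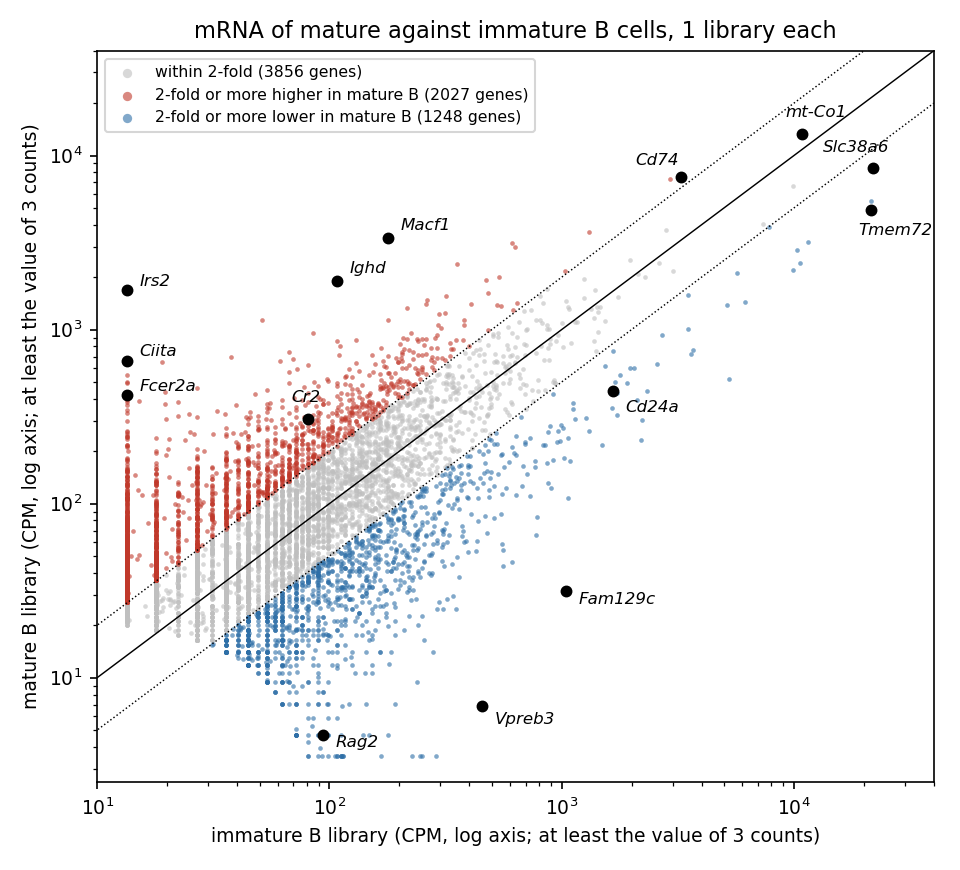
Level of the 7131 genes kept in the immature B library (x axis) and the mature B library (y axis), in CPM on log axes, with counts under 3 raised to the value of 3 counts. The solid line marks equal levels and the dotted lines 2-fold differences. Irs2, Ciita, Fcer2a, Macf1 and Ighd lie far above the line, and Vpreb3, Rag2 and Fam129c far below it.

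The 5 genes taken as markers of the mature side were chosen with their levels in these libraries known, so their values are a description only. Ighd (ENSMUSG00000104213), the constant region of IgD, had 24 counts or 107 CPM in immature B cells and 1607 counts or 1892 CPM in mature B cells. It was thus 17.6-fold higher (95% counting interval 11.8 to 27.6). Fcer2a (ENSMUSG00000005540), which encodes CD23, was listed at 0 in the pro-B, pre-B and immature B libraries and had 358 counts or 421 CPM in mature B cells. Against a floor of 3 counts per library it was 31.4-fold higher. The near bound of its interval, the end closer to equal levels, was 25.4-fold. Cr2 (ENSMUSG00000026616), which encodes the complement receptor CD21, had 18 counts or 80.5 CPM in immature B cells and 261 counts or 307 CPM in mature B cells, 3.82-fold higher (2.37 to 6.54).

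Irs2 (ENSMUSG00000038894), an adaptor between insulin or cytokine receptors and PI3K, was listed at 0 in immature B cells and had 1439 counts or 1694 CPM in mature B cells. It was 126-fold higher against the floor, with a near bound of 102.5-fold. It led all 7131 genes by the near bound of the interval. Macf1 (ENSMUSG00000028649), a very large protein that links microtubules and actin, had 39.8 counts or 178 CPM in immature B cells and 2851 counts or 3356 CPM in mature B cells, 18.8-fold higher (13.7 to 26.3). These markers differ in the other pair of libraries. Irs2 stood at 221 CPM in pro-B and 56.6 CPM in pre-B cells and Macf1 at 926 and 317 CPM, both in the direction of the split in mRNA share, whereas Ighd stood at 68 and 54.1 CPM and Cr2 at 13.8 and 62.4 CPM.

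The wider surface pattern was mixed. Of 15 surface maturation markers kept, 7 were 2-fold or more higher and 4 lower, with a median log2 ratio of 0.46. Cd55, which protects cells from complement, was 3.77-fold higher (2.39 to 6.25), and Cd86, a costimulatory ligand for T cells, 4.97-fold higher (2.07 to 15.8). Icosl, the ligand of ICOS on T cells, was listed at 0 in immature B cells and had 116 counts in mature B cells. On the lower side were Ly6d at 5.02-fold (4.20 to 6.01) and Cd24a, the heat stable antigen that falls as B cells mature, at 3.75-fold (3.24 to 4.34). Ly6d had 186, 217, 292 and 221 counts from pro-B to mature B cells. It stood at 214 CPM in pro-B and 903 CPM in pre-B cells, and Cd24a at 1310 and 1882 CPM, both in the direction of the split in mRNA share. The part of the split in these values was not tested. Cd93, a marker of immature and transitional cells, stood at 94.0 CPM in immature and 56.5 CPM in mature B cells, with an interval that included equal levels (0.95 to 2.83-fold lower).

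Genes of MHC class II presentation, by which B cells show peptides to helper T cells, were higher in mature B cells with 1 exception among those kept. Of 13 genes in the table, all were kept, 12 were 2-fold or more higher in mature B cells and 9 had the whole interval above 2-fold, with a median log2 ratio of 2.23. Their summed level was 5399 CPM in immature B cells and 17967 CPM in mature B cells, against 1518 CPM in pro-B and 973 CPM in pre-B cells. The summed level was thus higher in immature than in pro-B cells. Of the 13 genes, 6 were also 2-fold or more higher in pro-B than in pre-B cells and 1 lower, mostly in the direction of the split in mRNA share. The part of the split in this result was not tested.

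Ciita, the coactivator that switches on the whole class, had 2.84 counts in immature and 563 in mature B cells, a ratio of 52.2 (16.8 to 240.2). Among the classical chains, H2-Eb1 had 79 and 2023 counts and was 6.74-fold higher (5.38 to 8.55), and H2-Ab1 had 141 and 2516 counts and was 4.70-fold higher (3.96 to 5.60). H2-Aa was 3.36-fold higher (2.77 to 4.13). Cd74, the invariant chain that guards the peptide groove, already had 728 counts in immature B cells and reached 6355 in mature B cells, 2.30-fold higher (2.13 to 2.48), and was among the 10 genes with most counts in the mature B library. The peptide editor genes H2-DMa, H2-DMb1 and H2-DMb2 were 2.57-fold, 9.63-fold and 6.46-fold higher, and H2-Oa and H2-Ob, whose product restrains the editor, 3.51-fold and 7.29-fold. H2-DMb1 and H2-DMb2 are near-identical copies, so the split of reads between them is uncertain. Lgmn, a protease of the endosome, was the member that stayed within 2-fold, at 89.5 CPM in immature and 77.7 CPM in mature B cells.

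Since these genes were higher together, the 150 bases before the start are shown for 6 of them, 5′ to 3′, as RefSeq gives them on GRCm38.p6, with matches to 2 short motifs in capitals: GATTGG, the core of the Y box (its other strand is CCAATC), and CTAGNAAC, a core of the X box. They are H2-Aa at chr17:34287824-34287973, minus strand, H2-Eb1 at chr17:34305717-34305866, plus strand, H2-DMb1 at chr17:34153041-34153190, plus strand, H2-DMb2 at chr17:34145099-34145248, plus strand, H2-Oa at chr17:34092229-34092378, plus strand, and H2-Ob at chr17:34238755-34238904, plus strand.
H2-Aa: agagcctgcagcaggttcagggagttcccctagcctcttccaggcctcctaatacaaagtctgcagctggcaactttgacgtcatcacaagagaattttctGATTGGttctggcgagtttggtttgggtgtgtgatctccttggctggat
H2-Eb1: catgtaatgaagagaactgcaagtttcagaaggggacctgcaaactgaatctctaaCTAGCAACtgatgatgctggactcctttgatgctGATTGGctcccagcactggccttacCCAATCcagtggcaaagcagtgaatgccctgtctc
H2-DMb1: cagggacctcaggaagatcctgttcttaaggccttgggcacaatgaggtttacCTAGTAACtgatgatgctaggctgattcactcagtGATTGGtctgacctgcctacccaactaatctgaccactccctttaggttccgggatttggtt
H2-DMb2: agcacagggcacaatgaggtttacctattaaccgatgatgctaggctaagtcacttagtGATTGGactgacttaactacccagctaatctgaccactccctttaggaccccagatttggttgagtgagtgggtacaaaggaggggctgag
H2-Oa: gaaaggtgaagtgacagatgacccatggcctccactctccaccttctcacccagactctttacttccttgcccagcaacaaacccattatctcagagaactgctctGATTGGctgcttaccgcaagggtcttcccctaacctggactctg
H2-Ob: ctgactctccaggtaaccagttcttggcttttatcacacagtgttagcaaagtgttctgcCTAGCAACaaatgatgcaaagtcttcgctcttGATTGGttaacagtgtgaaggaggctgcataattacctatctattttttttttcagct
GATTGG occurred on either strand within 250 bases before the start in 8 of the 10 members that are counted here, and in 14.6% of all 32851 windows of that length. A member with several starts was counted if any of them had a match, whereas the share of all windows is per start. For H2-DMa, it was found at the second of its starts and not at the first. CTAGNAAC occurred in 4 of the 10, H2-DMb1, H2-Eb1, H2-Eb2 and H2-Ob, and in 3.06% of all windows. The motifs did not overlap. In H2-Eb1 the Y box match began 60 bases and the X box match 94 bases before the start, in H2-DMb1 62 and 97 bases, and in H2-Ob 58 and 90 bases. H2-Eb1 held a further Y box match 35 bases before the start. In H2-Eb2 the exact matches lay in the reverse order, with the Y box match 101 bases and the X box match 12 bases before the start. Its window also held ccagcaac upstream of the Y box match, which differs from CTAGNAAC in the second letter and was not counted. The exact matches therefore do not give the order of the boxes in H2-Eb2. H2-Oa, H2-Aa and H2-DMb2 held ccagcaac, ctggcaac and ctattaac upstream of the Y box match. Each differs from CTAGNAAC in a single letter and was not counted either. The count of members with CTAGNAAC thus covers exact matches only. A match of letters describes the sequence and was not tested for binding. Ciita, Cd74 and H2-Ab1 are not among these 10 members and are named without sequence.

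All 8 GIMAP genes, small GTPases of lymphocyte survival, were kept and 2-fold or more higher, 5 of them with the whole interval above 2-fold, and their median log2 ratio was 2.04. Gimap8 was listed at 0 in immature B cells and had 204 counts in mature B cells, 17.9-fold higher against the floor, with a near bound of 14.4-fold. Gimap6 had 15.3 and 242 counts, 4.18-fold higher (2.52 to 7.70). Gimap4, Gimap5 and Gimap7 were also listed at 0 in immature B cells, with 85, 46 and 24 counts in mature B cells. Here the other pair of libraries differed in the same direction: the summed level was 723 CPM in pro-B and 118 CPM in pre-B cells, beside 194 CPM in immature and 1200.3 CPM in mature B cells. The part of the split in mRNA share in this result was not tested.

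Of 19 genes of homing, adhesion and egress kept, 8 were 2-fold or more higher and 1 lower, with a median log2 ratio of 0.60. Cxcr5, the receptor that leads B cells into follicles, was listed at 0 in the 3 earlier stages and had 180 counts or 212 CPM in mature B cells, 15.8-fold higher against the floor. Ccr6, another chemokine receptor of mature B cells, was listed at 0 in the same 3 libraries and had 59 counts. Integrin genes differed among themselves. Itgb7 was 14.3-fold higher (6.06 to 44.4) and Itga4 10.8-fold higher (6.24 to 19.4), but Itga4 also stood at 1231 CPM in pro-B against 43.5 CPM in pre-B cells. Itgb1 was 2.03-fold higher (1.04 to 4.39), and Itgal and Itgb2 stayed within 2-fold, at 1.51-fold (1.01 to 2.35) and 1.24-fold (0.78 to 2.07). Ccr7, which leads to the T cell zone, stood at 689 CPM in immature and 1281 CPM in mature B cells, 1.86-fold (1.57 to 2.22). Cxcr4, which holds cells in the marrow, and S1pr1, which draws them into the blood, stayed within 2-fold, at 1.39-fold (1.21 to 1.61) and 1.26-fold (1.04 to 1.54). S1pr4 was the member 2-fold or more lower, with 12.5 and 22.3 counts. Between pro-B and pre-B cells, 9 of the 19 genes were 2-fold or more higher in pro-B cells and 5 lower.

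**Figure D2:**
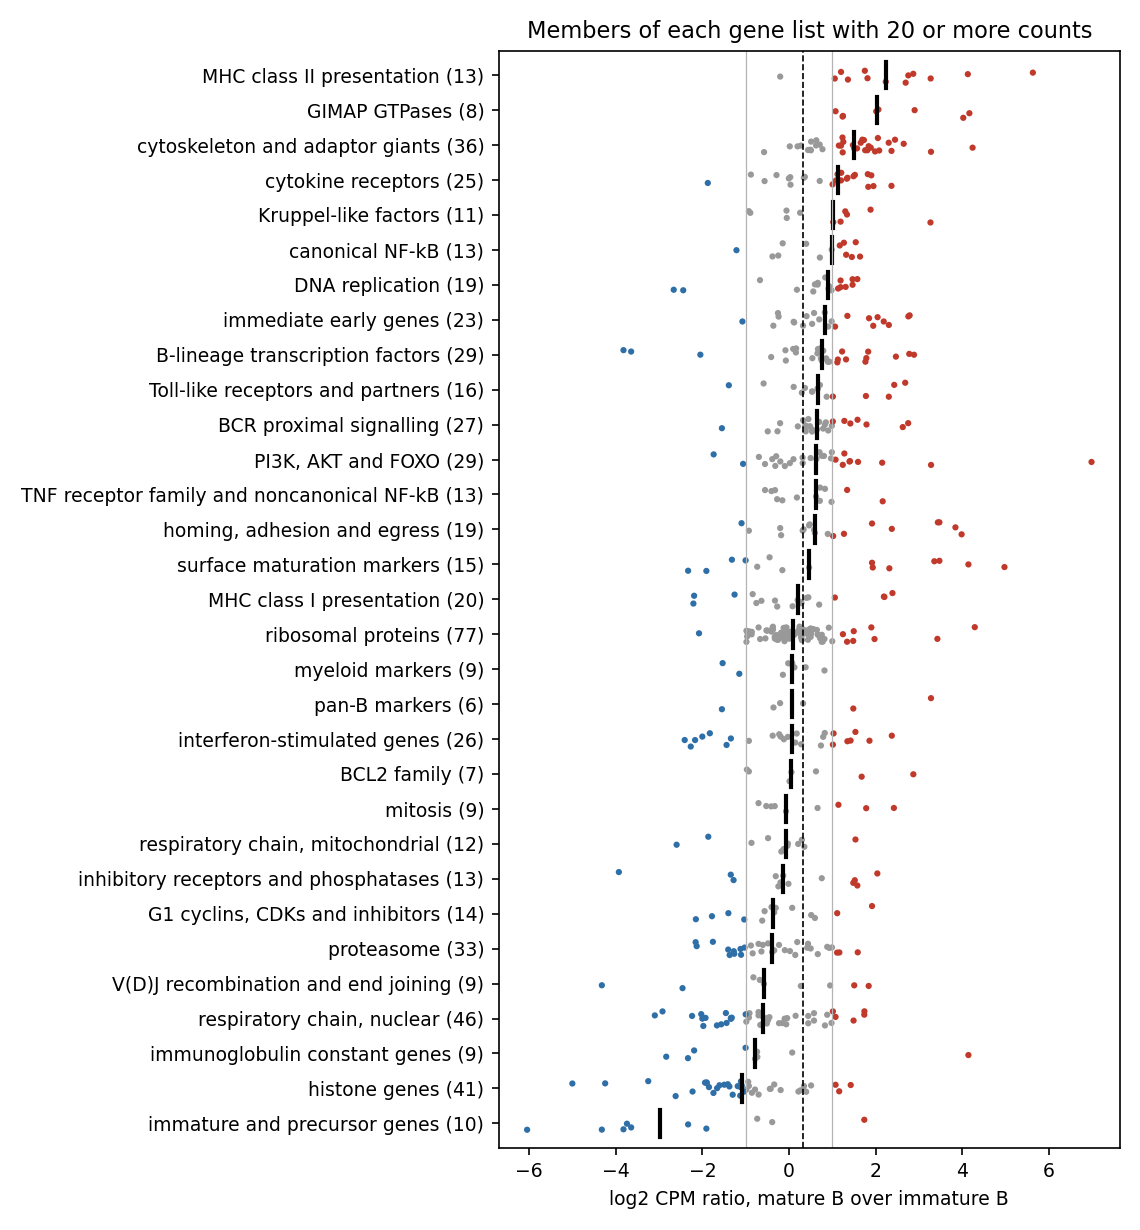
Each point is a gene with 20 or more counts, placed by its log2 CPM ratio of mature over immature B cells (x axis, counts under 3 raised to 3), for the lists with at least 6 such genes (y axis, number of genes in brackets). Black bars mark list medians, the dashed line the median of all genes kept, 0.32, and grey lines 2-fold. MHC class II genes have a median of 2.23, and immature and precursor genes one of -2.99.

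Cytokine receptors and their kinases were a further group on the higher side, with 15 of 25 kept at 2-fold or more, 1 lower and a median log2 ratio of 1.12. Il4ra, the receptor chain for IL-4, had 49 and 534 counts and was 2.87-fold higher (2.14 to 3.93). Jak1, a kinase shared by many of these receptors, was 3.73-fold higher (2.82 to 5.02), Il10ra 3.55-fold (2.07 to 6.62) and Il21r 2.17-fold (1.41 to 3.45). Il4ra and Il21r stood lower in pro-B than in pre-B cells, at 106 against 146 CPM and 30.0 against 62.4 CPM. Of the 25 genes, however, 10 were 2-fold or more higher in pro-B than in pre-B cells and 5 lower. The list has long transcripts, with a median length of 1.45 times the median gene. The part of the split in mRNA share and of length in this result was not tested. Ifnar2, a chain of the type I interferon receptor, was 3.66-fold lower (2.08 to 6.45). Il7r, the receptor of the precursor stages, had 8 counts in immature and 2 in mature B cells and did not reach 20 counts.

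Around the B cell receptor, most genes stayed within 2-fold, with 7 of 27 higher, 1 lower and 19 between, a share of higher genes near the background. The higher ones included Bank1, a scaffold of receptor signalling, with 48 and 1125 counts, 6.17-fold higher (4.62 to 8.41), and Rasgrp3, an activator of Ras, 6.72-fold higher (3.01 to 18.6). The kinase genes Blk and Prkcb were 2.99-fold (1.87 to 5.07) and 3.45-fold higher (2.40 to 5.30). Cd79b, a signalling chain of the receptor, was 2.93-fold lower (2.63 to 3.26), with 605 and 786 counts, while its partner Cd79a stood at 680 and 590 CPM, 1.15-fold lower (0.96 to 1.39). In pro-B against pre-B cells, 7 of the 27 genes were 2-fold or more higher and 2 lower.

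Of 13 inhibitory receptor and phosphatase genes, 4 were higher and 3 lower, with a median of -0.13, a share of higher genes near the background. Cd22 and Btla, both inhibitory receptors, were 2.80-fold (2.24 to 3.53) and 2.86-fold higher (2.07 to 4.14). Cd5 was 15.2-fold lower (4.90 to 62.5), from 16 to 4 counts, and Cd72 2.43-fold lower (1.62 to 3.59). Ptpn6, which encodes the phosphatase SHP-1, had 200 and 753 counts, 895 and 887 CPM. The 2 markers used to tell marginal zone from follicular cells by level, Cr2 and Cd1d1, went apart, since Cd1d1 was 2.49-fold lower (1.36 to 4.61).

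Of 13 canonical NF-kB genes kept, 6 were higher and 1 lower, with a median log2 ratio of 0.98. Rel, the subunit that serves mature lymphocytes, had 123 and 1161 counts and was 2.49-fold higher (2.06 to 3.02), Nfkb1 2.25-fold (1.58 to 3.31) and the feedback inhibitor gene Tnfaip3 2.91-fold (2.11 to 4.11). Nfkbia, which encodes the inhibitor IkBα, was 2.32-fold lower (1.82 to 2.94). In pro-B against pre-B cells, 6 of these 13 genes were also 2-fold or more higher and 0 lower. The part of the split in mRNA share in this result was not tested. Of 13 genes of TNF receptors and noncanonical NF-kB, 2 were higher and 0 lower. Tnfrsf13c, the BAFF receptor on which mature B cells depend, had 83 and 215 counts, 371 and 253 CPM, 1.47-fold lower (1.12 to 1.90). Among 7 BCL2 family genes kept, 2 were higher, a share near the background. They were Bcl2 itself, which blocks cell death, with 4 and 111 counts, 7.30-fold (2.77 to 27.3), and Pmaip1, which promotes it, 3.20-fold (1.49 to 8.19). Mcl1 stood at 626 and 651 CPM.

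Of 29 transcription factor genes of the B lineage kept, 10 were higher, 3 lower and 16 between, with a median log2 ratio of 0.75, a share of higher genes near the background. Sox4 and Myb, both factors of B cell precursors, had 78 and 21 and 69 and 21 counts and were 14.1-fold (8.63 to 24.1) and 12.5-fold lower (7.57 to 21.4). Spib was 4.13-fold lower (3.26 to 5.23). Elf1 was 7.38-fold higher (4.02 to 15.8), Ets1 3.44-fold (2.78 to 4.31), Foxp1 3.55-fold (2.61 to 4.86) and Mef2c 3.39-fold (2.60 to 4.51), and all 4 were also higher in pro-B than in pre-B cells, Ets1 for example at 735 against 346 CPM. The lineage factor genes Pax5 and Ebf1 were within 2-fold, at 1.58-fold (1.39 to 1.79) and 1.73-fold higher (1.39 to 2.15).

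Of 11 Kruppel-like factor genes kept, 6 were higher and 0 lower, with a median log2 ratio of 1.02. Klf3 had 4 and 146 counts and was 9.60-fold higher (3.67 to 35.7), and Klf6 and Klf13 were 2.46-fold (1.89 to 3.26) and 2.53-fold higher (1.86 to 3.57). Klf2, which keeps lymphocytes quiescent and controls their traffic, stood at 454 CPM in immature and 436 CPM in mature B cells, 1.04-fold lower (0.83 to 1.30). Between pro-B and pre-B cells, 3 of the 11 genes were 2-fold or more higher in pro-B cells and 2 lower. Of 29 genes of the PI3K, AKT and FOXO pathway, 9 were higher, a share near the background, and 2 lower. Besides Irs2, the highest was Sesn3, a FOXO target, with 5.82 and 214 counts, 9.69-fold higher (4.24 to 25.9). Foxo1 was 2.36-fold higher (1.56 to 3.81), whereas Foxo4 was 2.08-fold lower (1.53 to 2.82). In pro-B against pre-B cells, 12 of the 29 genes were 2-fold or more higher and 1 lower.

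Of 23 immediate early genes, which answer to stimulation within minutes, 9 were higher and 1 lower, with a median log2 ratio of 0.83. Nr4a1, which follows the strength of receptor signals, had 29 and 743 counts and was 6.74-fold higher (4.65 to 10.1). Fos was 4.94-fold higher (3.40 to 7.44), Egr3 4.55-fold (2.66 to 8.45) and Zfp36 6.88-fold (3.75 to 14.8). Jun, Egr1 and Jund stayed within 2-fold, at 1.09-fold higher and 1.18-fold and 1.19-fold lower. Between pro-B and pre-B cells, 5 of the 23 genes were 2-fold or more higher in pro-B cells and 4 lower. Of 16 genes of Toll-like receptors and their partners, 5 were higher, a share near the background, and 1 lower. Cd180, a homolog on B cells, was 6.41-fold higher (3.71 to 12.9), and Tlr7 3.42-fold (1.39 to 10.9). In pro-B against pre-B cells, 5 of the 16 were 2-fold or more higher and 3 lower.

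Among the gene lists, that of the precursor stages had the lowest median. Of 20 genes in this list, 10 were kept, and 7 of them were 2-fold or more lower and 1 higher, with a median log2 ratio of -2.99. The summed level of all 20 was 10401 CPM in pro-B and 9275 CPM in pre-B cells, then 5115 CPM in immature and 1057 CPM in mature B cells. Vpreb3, which pairs with the receptor chains during assembly, had 102 counts in immature and 5.87 in mature B cells, 65.9-fold lower (28.7 to 180.2). Rag2, which cuts DNA in V(D)J recombination, had 21 and 4 counts, a level between 6.73-fold and 79.9-fold lower by its interval, while Rag1 had 0 and 1. Tifa was 13.3-fold lower (9.29 to 19.6), with 137 and 39 counts. Of the 10 kept, 6 had fewer counts in the mature library, which had the larger total. The genes of the surrogate light chain and of N-nucleotide addition were near 0 in both libraries, with Vpreb1 at 2 and 0 counts and Igll1 and Dntt at 0 in each. Spn, which encodes CD43, the antigen both gates exclude, was the member that was higher, with 0 and 38 counts.

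Of 9 immunoglobulin constant genes kept, 4 were lower and Ighd was the 1 that was higher. Ighm had 1747 and 3314 counts, 7816 and 3902 CPM, 2.0-fold lower (1.89 to 2.12). Of the light chains, Igkc was 1.72-fold lower (1.38 to 2.12) and Iglc1 5.03-fold lower (3.22 to 7.93). In pro-B and pre-B cells Ighm stood at 3775 and 7147 CPM, so that the sides of the split also differed there.

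**Figure D3:**
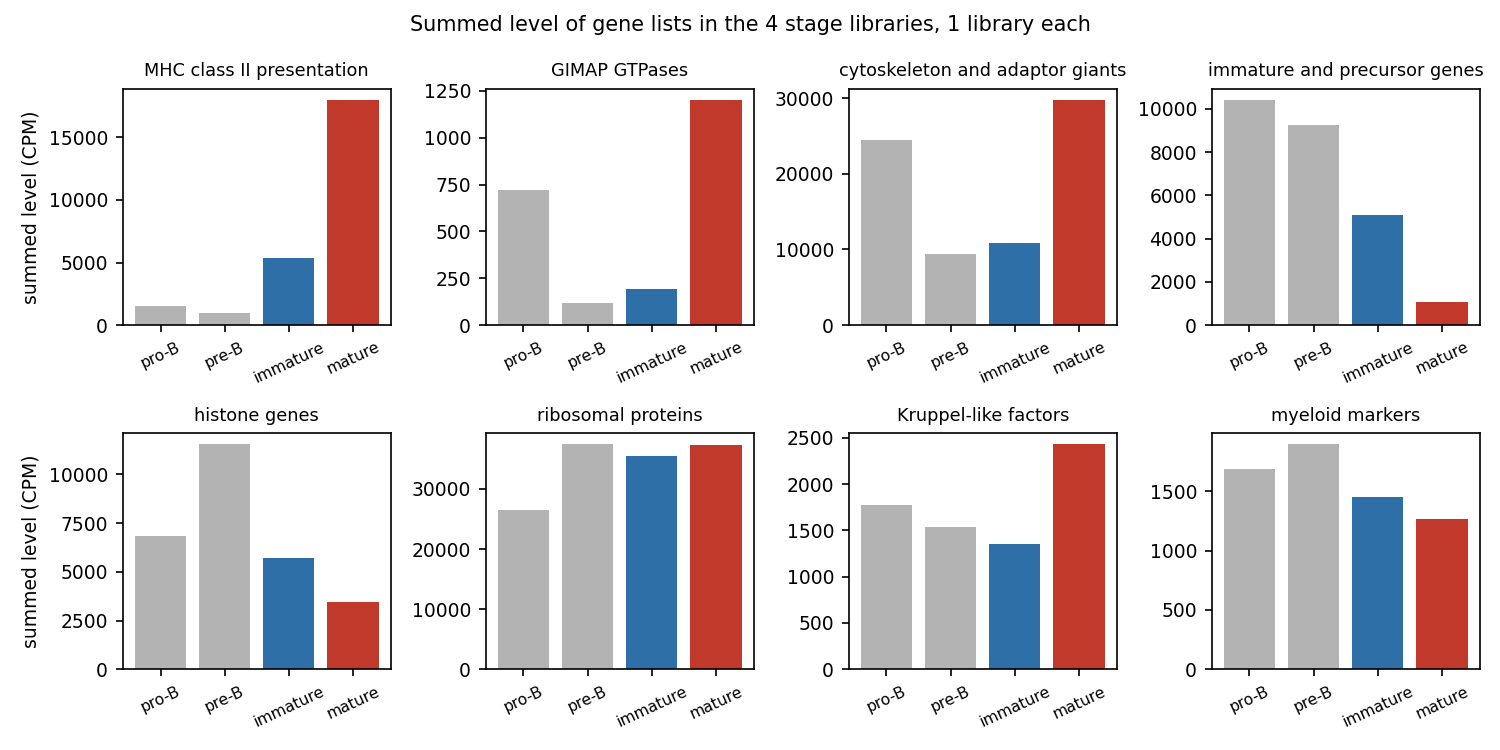
Summed level in CPM (y axis, from 0) of all genes of 8 lists in the libraries of all stages (x axis, ordered from pro-B to mature B, 1 library each). MHC class II genes are at 17967 CPM in mature B cells and at most 5399 CPM in the other libraries, precursor genes stand at 10401 CPM in pro-B and 1057 CPM in mature B cells, and the very large genes and GIMAP genes are high in both the pro-B and the mature B library.

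By the near bound of the interval, Vpreb3 was the only gene of the precursor list among the 15 that led the lower side. Ptk2b, which encodes the kinase Pyk2, had 56 counts in immature B cells and was listed at 0 in mature B cells. It was 70.9-fold lower against the floor, with a near bound of 55.8-fold, although it had 175 counts in pro-B and 30 in pre-B cells. Fam129c, a gene known from B cells, had 234 and 26.6 counts and was 33.4-fold lower, with 208 counts in pro-B and 202 in pre-B cells. All 15 genes of this ranking had fewer counts in mature B cells. Of the 15 that led the higher side, 11 were listed at 0 in immature B cells, among them Ash1l with 426 and Ddx6 with 348 counts in mature B cells. Tagap, a GTPase-activating protein gene, had 2.45 and 464 counts, a ratio of 49.8 (16.8 to 506), and Lrrk2, a large kinase, 2.48 and 418 counts, a ratio of 44.4 (15.1 to 456).

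Groups of housekeeping genes differed from each other. The 77 ribosomal protein genes kept had a median log2 ratio of 0.087, which was -0.16 at the lowest under other scalings, with 8 higher and 1 lower. Their summed level was 35444 CPM in immature and 37242 CPM in mature B cells. Nuclear genes of the respiratory chain had 15 of 46 lower and 5 higher, with a median of -0.60, among them Cox7c, 7.56-fold lower (5.08 to 11.5). Proteasome genes had 10 of 33 lower and 3 higher. Histone genes had 22 of 41 lower and 3 higher, with a median of -1.09 and a summed level of 5727 CPM in immature and 3469 CPM in mature B cells. In pro-B and pre-B cells they summed to 6842 and 11540 CPM. Between these libraries, 12 histone, 13 respiratory chain and 2 proteasome genes were 2-fold or more lower in pro-B cells, and 1, 3 and 6 higher. All these groups are short, with median lengths of 0.272 (ribosomal), 0.345, 0.546 and 0.320 times the median gene. The part of length and of the split in mRNA share was not tested. Many histone genes are near copies of each other, so single members are uncertain.

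Genes of cell division stood lower in both stages than in the earlier ones. The summed level of 38 DNA replication genes was 1358 CPM in immature and 1482 CPM in mature B cells, against 3601 CPM in pro-B and 3400 CPM in pre-B cells. For 31 mitosis genes it was 1291 and 1272 CPM against 3429 and 1944 CPM. Mki67, a marker of cycling cells, stood at 170.0 CPM in immature and 135 CPM in mature B cells, 1.26-fold lower (0.85 to 1.83), and at 730 CPM in pro-B cells. Of the 19 replication genes kept, 7 were 2-fold or more higher in mature B cells and 2 lower, with a median log2 ratio of 0.91. Tyms, which makes thymidylate, was among the lower ones, at 6.32-fold (4.4 to 9.05). Between pro-B and pre-B cells, 9 of the 19 were 2-fold or more higher in pro-B cells and 1 lower. Of 14 G1 genes kept, 2 were 2-fold or more higher in mature B cells, 4 lower and 8 between. By the whole interval, 0 were higher and 1 lower. Ccnd2 and Ccnd3, the cyclins of B cells, were 3.43-fold (2.14 to 5.48) and 2.64-fold lower (1.65 to 4.17), and Cdkn1b, which encodes the inhibitor p27, was 2.16-fold higher (1.32 to 4.0).

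Markers of other marrow cells were found in both libraries. The 12 myeloid markers summed to 1454 CPM in immature and 1264 CPM in mature B cells, where 10 and 11 of them were above 0. Ngp, a granule protein of neutrophils, stood at 251 and 227 CPM and Lyz2 at 233 and 246 CPM. Erythroid markers summed to 325 and 283 CPM. The 10 T and NK cell markers had 17.9 and 5.89 CPM in all, none reached 20 counts, and Cd3d and Cd3g were listed at 0 in both. Plasma cell markers summed to 443 and 181 CPM and those of plasmacytoid dendritic cells to 295 and 115 CPM, higher in the immature B library. The part of these cells in the results was not tested. Interferon-stimulated genes, 26 of which were kept, split evenly with 7 higher and 7 lower. Of the 6 pan-B markers, Ptprc, which encodes CD45 and its B220 form, was 9.69-fold higher (5.76 to 16.6), with 15.6 and 574 counts, and stood at 290 CPM in pro-B and 39.1 CPM in pre-B cells.

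Part of the difference ran along the split in mRNA share. Among genes with 20 or more counts in the pro-B and pre-B libraries, 54.1% of those higher in mature B cells were also 2-fold or more higher in pro-B than in pre-B cells, against 33.2% of all. Of those lower in mature B cells, 46.7% were also 2-fold or more lower in pro-B cells, against 13.8% of all. These libraries are not among those compared. Among the genes with most counts, Slc38a6 had 4906 counts in immature and 7171 in mature B cells, Tmem72 4791 and 4154, Noct 4786 and 4672, and mt-Nd6 2576 and 2692. The last of these is the mitochondrial gene that lies on the strand opposite to the others. Of the 10 genes with most counts in the immature B library, 6 had counts within 1.5-fold of each other in all 4 libraries, and 8 were 2-fold or more lower in the mature B library by CPM. The 10 genes with most counts took 13.6% of the mRNA counts (Wilson 13.4 to 13.7) in immature B cells and 6.53% (6.48 to 6.58) in mature B cells.

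**Figure D4:**
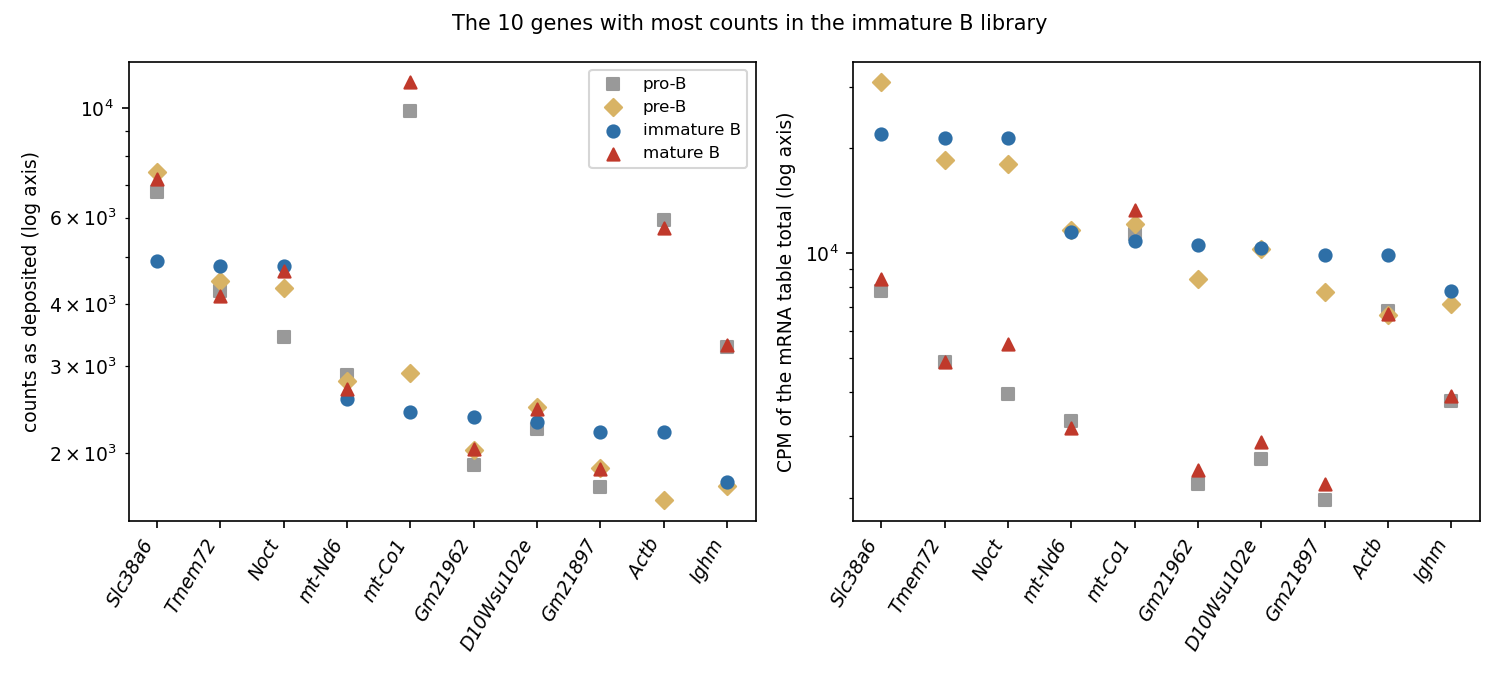
The 10 genes with most counts in the immature B library (x axis), as counts as deposited (left, log axis) and as CPM of the mRNA total (right, log axis), in the 4 libraries. Counts of Tmem72, mt-Nd6 and D10Wsu102e nearly coincide in all 4, and their CPM fall into a higher pair, pre-B and immature B, and a lower pair, pro-B and mature B.

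The genes 2-fold or more lower can be divided by their counts. Of the 1248, 460 had fewer counts in the mature B library, which had 3.8 times the mRNA counts, and 788 had as many or more. In the authors' FPKM values, 532 of them were lower and 146 were lower by 2-fold or more. Vpreb3, Rag2, Tifa, Sox4 and Myb were among those with fewer counts, whereas Cd24a, with 370 and 375 counts, Ighm and Cd79b were not.

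Longer transcripts were higher in mature B cells. With length taken as the ratio of counts to FPKM over the 4 libraries, and genes split into 5 equal groups by it, the shortest group had a median log2 ratio of -0.14 and the longest 0.74. The share of genes 2-fold or more higher went from 15.7% in the shortest group to 40.3% in the longest, and the share lower from 24.5% to 15.4%. Among genes with 100 to 500 counts alone, the medians went from 0.08 to 0.93. Of 36 very large cytoskeletal and adaptor genes kept, 24 were higher and 0 lower, with a median of 1.49, and 28 were also 2-fold or more higher in pro-B than in pre-B cells. Dock2 and Dync1h1 were 4.93-fold (3.88 to 6.35) and 4.14-fold higher (3.23 to 5.40). The MHC class II and GIMAP genes, with median lengths of 0.538 and 0.564 times the median gene, were higher although short. The part of the split in mRNA share in the length pattern was not tested.

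**Figure D5:**
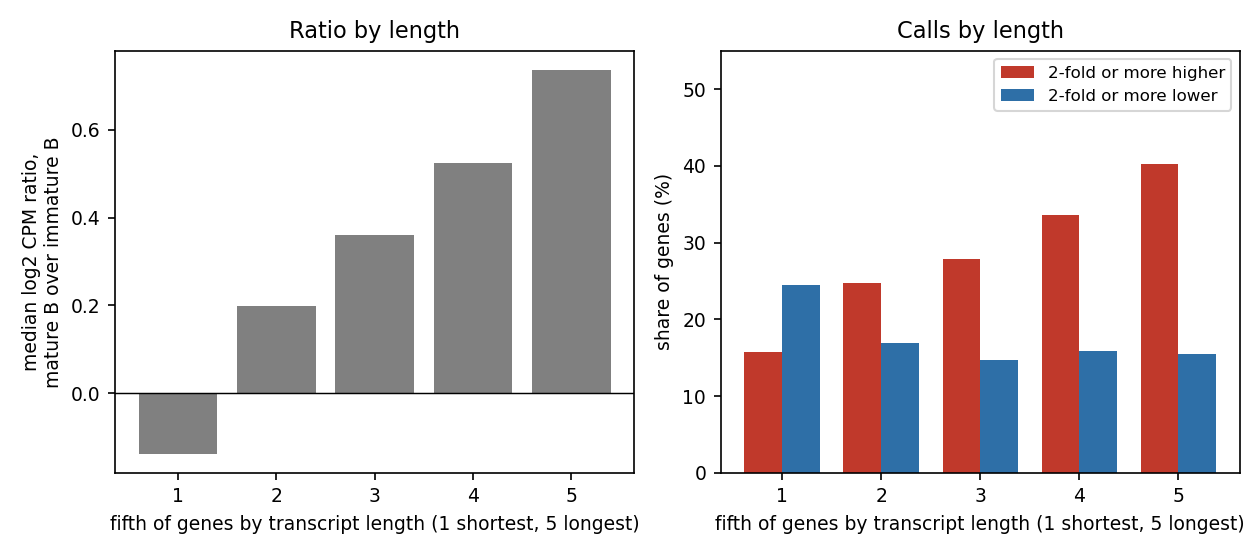
Genes kept in 5 equal groups by transcript length (x axis, 1 shortest). Left, the median log2 CPM ratio of mature over immature B cells, from -0.14 to 0.74. Right, the share of genes (%) 2-fold or more higher, from 15.7% to 40.3%, and lower, from 24.5% to 15.4%.

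A value of 0 in the table need not mean that a gene is absent. Of the genes kept, 356 were listed at 0 in immature and 11 in mature B cells, and 111 of the 356 were at 0 in pre-B cells as well. Hsp90ab1, a chaperone gene that every cell uses, was listed at 0 in immature and pre-B cells, with 311 counts in mature and 179.5 in pro-B cells. Back-spliced reads of the same immature B library, which mark circular RNAs, were found for 8 genes listed at 0, with 62 reads in all. Rasa2, a regulator of Ras, had 18 such reads there and 0 mRNA counts, and Man2a1, a glycan enzyme, 14 and 0. Hsp90ab1 had 1, and Irs2 and Fcer2a had none in that library.

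Circular RNAs of the same libraries give a readout that the mRNA columns do not use. Of the genes kept, 450 had back-spliced reads in either library. The circular RNAs of genes higher in mature B cells had 559 reads in immature and 688 in mature B cells, those of genes within 2-fold 917 and 610, and those of genes lower in mature B cells 106 and 67, where the library totals were 1751 and 1531. Foxp1 circles had 41 and 40 reads while its mRNA was 3.55-fold higher. Arid1a, a chromatin remodelling gene, had 16 and 46 reads. For several genes of receptor signalling and lineage control the reads ran against the mRNA ratio: Syk had 27 and 2, Ebf1 24 and 0 and Blnk 16 and 0 reads, although their mRNA was 1.80-fold, 1.73-fold and 2.67-fold higher in mature B cells.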

How the data were processed

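The labels assign 1 rRNA-depleted RNA library to each stage. Following the study's methods, the authors trimmed reads with fastp, removed rRNA reads with Bowtie2, mapped the rest with HISAT2 and quantified genes with StringTie. The submitters' processing notes name Bowtie 0.12.2 and mm9 instead. Values of the deposited mRNA and lncRNA tables are the authors' estimated counts, which were rounded only for intervals and size factors. FPKM values deposited by the authors served for length and as an alternative. CircRNA read counts were used as deposited, and the deposited miRNA table was not used.

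Counts were divided by each column's total and multiplied by 1000000, and genes with 20 or more counts over both columns were kept. Counts under 3 were raised to 3 before a log2 ratio. A fold "against the floor" takes that value, per library, and can lie beyond the near bound of the interval. The 95% interval is the exact conditional (Clopper-Pearson) interval of the ratio of 2 counts, and shares carry Wilson intervals. Named are the 5 markers, members of the gene lists, the 15 genes leading each direction by the near bound of the interval and the 10 with most counts in each library. Arid1a, Rasa2, Man2a1 and the short motifs were chosen after their values were seen. The genes, lists and rules were chosen with earlier results of these data known. Calculations were tested on simulated data and used Python 3.11.15, scipy 1.17.1 and pandas 2.3.3, and R 4.3.3 with edgeR 4.0.16 (TMM) and DESeq2 1.42.0 (size factors), which were used for scaling only. Some members of the lists are counted but not reported here by name.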

Additional observations from a re-analysis of the deposited data

How the results depend on the processing

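No paired analysis was possible because each stage has 1 library, and no library could be left out for the same reason. With the authors' FPKM values in place of CPM, 5550 genes were 2-fold or more higher and 150 lower, and the median log2 ratio was 2.11. With all counts of the mRNA and lncRNA tables as the total, an alternative chosen after seeing the data, the values were 5735, 140 and 2.18, and every log2 ratio shifts by 1.86. TMM and DESeq2 size factors gave medians of 0.090 and 0.078, without moving a count of genes by over 1.5 times. At 50 or more counts, 604 genes were lower, 323 of them by the whole interval, and the median was 0.46. At a mean of 50 CPM, 1155 were higher and 780 lower, with a median of 0.27. Without a filter, 5299 were lower, 1103 of them by the whole interval, and the median turned to -0.56, since genes under the floor in both libraries take the ratio of the totals. With 0.5 counts added, the median was 0.27, and without genes listed at 0, 0.24. The difference of 0.87 between the longest and the shortest of the 5 length groups was 0.61 with length from the immature B columns alone. The other 43 of 63 values stayed within 1.5 times or their interval. Of 36 gene lists, 7 had a median that changes sign with the scaling: BCL2 family, MHC class I, interferon-stimulated, myeloid, erythroid, pan-B and ribosomal genes. The depth of the immature B library limits low levels: 3 counts are 13.4 CPM there and 3.53 CPM in the mature B library.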

Other observations

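Of 20 genes of MHC class I presentation kept, 4 were 2-fold or more higher in mature B cells and 3 lower. Nlrc5, which switches on class I genes as Ciita does class II, was 5.23-fold higher (2.59 to 12.3), with 8 and 159 counts. The summed level of the class was 5454 CPM in immature and 5788 CPM in mature B cells, against 5399 and 17967 CPM for class II. Of 9 genes of V(D)J recombination and end joining kept, Polm, a polymerase that fills gaps at the joints, was 5.49-fold lower (3.28 to 9.32), and Prkdc and Atm, kinases of the repair of breaks, were 2.84-fold (1.64 to 5.32) and 3.57-fold higher (1.99 to 7.06). Both kinase genes are long, and both were also higher in pro-B than in pre-B cells, at 89.9 against 29.1 CPM and 137 against 33.3 CPM.

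Notch2, the receptor that directs cells to the marginal zone, was 6.38-fold higher in mature B cells (4.64 to 8.96), with 39.9 and 967 counts, and stood at 183 CPM in pro-B cells and 0 in pre-B cells. Dtx1, a gene downstream of Notch signalling, was 2.15-fold lower (1.52 to 3.0), with 56.9 and 101 counts. The mitochondrial genes of the heavy strand, such as mt-Co1 with 10810 and 13278 CPM, stayed within 2-fold, apart from mt-Nd3, which was 6.03-fold lower (3.82 to 9.74), and mt-Atp8, at 3 and 33 counts.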
